A study of Mus musculus with 4 samples.

Results

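Integrins are the adhesion receptors through which macrophages hold on to matrix, to other cells and to opsonised particles. The 10 genes described here encode the alpha and beta chains that macrophages are known for. They were chosen by name and not by a rule on their values, though earlier results of these data were known. They are 10 of 19505 genes measured on arrays of bone marrow-derived macrophages, and each is read by a single probe set. Femoral marrow of wild-type (WT) and of Hem1 KO mice had been grown for 8 days in RPMI with 10% fetal calf serum and 20% medium taken from L929 fibroblasts, which secrete CSF1, the cytokine that drives macrophage growth. Both genotypes were grown the same way and received no further treatment. Hem1 is encoded by Nckap1l and is the blood-cell subunit of the WAVE complex, which switches on the branching of actin by Arp2/3. There were 2 arrays per genotype, from distinct mice, so n is 2 arrays per genotype throughout. The strain, sex and age of the mice and the deleted part of Nckap1l are not given in the sources used here.

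An integrin is a pair of 1 alpha and 1 beta chain, and neither chain reaches the cell surface in number without its partner. The beta 2 chain pairs with the alpha L, alpha M and alpha X chains to form the leukocyte integrins LFA-1, Mac-1 and the complement receptor CR4. The beta 1 chain pairs with alpha 4 and alpha 5 to bind VCAM-1 and fibronectin, and alpha V pairs with beta 3 or beta 5 to bind proteins that carry the RGD tripeptide, such as vitronectin and the apoptotic cell bridge MFG-E8. Talin and kindlin bind the beta tail from inside the cell, switch the receptor to its active form and link it to actin.

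The values are log2 numbers as the authors deposited them, and a difference is Hem1 KO minus WT, so that a difference of -1 is a 2-fold lower value. Background was set on each array from 1450 chemosensory receptor genes (smell, pheromone and taste), at their 95th percentile. It lay at 5.87 and 5.51 in WT against 6.04 and 5.38 in Hem1 KO macrophages. All 10 members lay above it on all 4 arrays. The targeted gene Nckap1l read 11.37 and 11.11 in WT against 10.04 and 9.62 in Hem1 KO macrophages (difference -1.41, standard error (SE) 0.32, adjusted p = 0.0467 by limma). When 1 array was left out, the call held only in the fit without Hem1 KO replicate 1, while the fits that lacked WT replicate 1 (-1.28), lacked WT replicate 2 (-1.54) and lacked Hem1 KO replicate 2 (-1.20) no longer called it. Since the deleted part is not known here, this value does not check the labels. The macrophage markers were bright on all arrays: the 8 measured of 10 listed all lay above background, with Csf1r, the CSF1 receptor, at 12.19 to 12.84 and Adgre1, which encodes the adhesion receptor used as the classic mouse macrophage marker, at 11.09 to 11.71. Over all genes the values of Hem1 KO replicate 1 were less spread (SD 2.00) than those of the other arrays (SD 2.15 each). The number of arrays limits the precision.

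No integrin subunit among the 10 passed the threshold of an adjusted p under 0.05, where limma called 1.61% of all genes, 1.48% higher and 0.133% lower in the Hem1 KO macrophages. An unadjusted p under 0.05 was reached by 1 member, Itgb2, against 5.2% of all genes in either direction and 1.57% on the lower side. The median difference of the members was -0.06, against 0.01 over all genes. The members ran from -0.97 for Itgb2 to 0.33 for Itgal. The arrays of the genotypes did not overlap for 5 members, of which Itgb2, Itgam, Itga4 and Itgb5 were lower in the Hem1 KO macrophages and Itgb1 was higher, while 25.8% of all genes did not overlap, 13.3% on the lower side. In bulk RNA, fewer cells with a transcript and less of it per cell cannot be told apart.

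**Figure D1:**
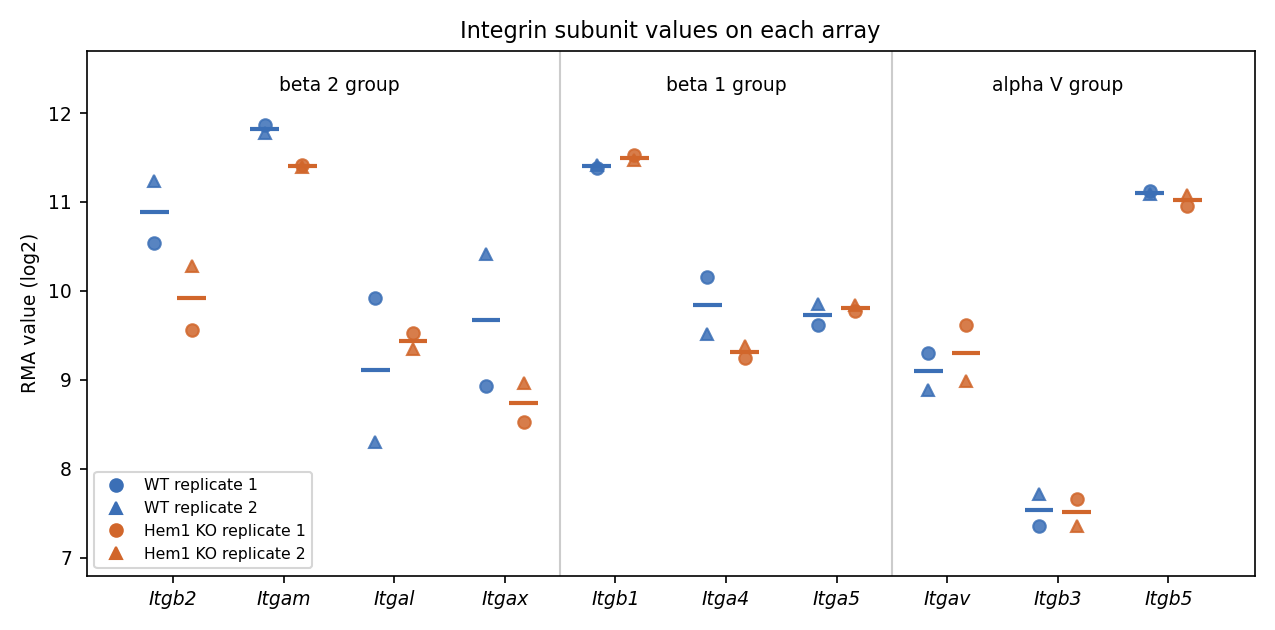
Log2 RMA value of each integrin gene on each array, with circles for replicate 1, triangles for replicate 2 and bars for the mean of each genotype (blue WT, orange Hem1 KO). Itgb2 lies lower on both Hem1 KO arrays (9.56 and 10.28) than on both WT arrays (10.54 and 11.24), while the genotypes of Itgb1 lie within 11.39 to 11.53; heights of different genes are not comparable.

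Itgb2, which encodes the beta 2 chain shared by LFA-1, Mac-1 and CR4, had the lowest difference of the members. It read 10.54 and 11.24 in WT (mean 10.89 ± 0.49, SD, n = 2) against 9.56 and 10.28 in Hem1 KO macrophages (mean 9.92 ± 0.51, SD, n = 2). Both Hem1 KO arrays lay below both WT arrays, although the gap between the nearest arrays was smaller than the spread within either genotype. The difference was -0.97 (SE 0.37, 95% interval -1.76 to -0.18), or 1.96-fold. It did not pass after adjustment over all genes (unadjusted p = 0.0196, adjusted p = 0.554 by limma), and 0.626% of all genes had a lower difference. Leaving out WT replicate 2 gave -0.62, leaving out Hem1 KO replicate 1 gave -0.61, and leaving out Hem1 KO replicate 2 gave -1.33, which limma called (adjusted p = 0.0345). Letting limma's prior variance follow intensity also brought a call of Itgb2 (adjusted p = 0.000226), but that prior had infinite degrees of freedom and gave the gene's own spread no weight.

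The 3 alpha partners of beta 2 among the members gave values on both sides of 0, and limma called none of them. Itgam, which encodes the alpha M chain (CD11b) of Mac-1, read 11.86 and 11.78 in WT against 11.41 and 11.39 in Hem1 KO macrophages. These were tight pairs that did not overlap, and the difference was -0.42 (SE 0.31, 95% interval -1.09 to 0.25, adjusted p = 1 by limma). The SE is larger than the scatter of the 4 Itgam values because limma draws each gene's spread toward that of all genes. Itgam was also the steadiest of the 4 beta 2 genes when arrays were left out, at -0.46 to -0.38. The scaling of the arrays moved it further, to -0.28 after quantile normalization and -0.52 after median centring.

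Itgax, which encodes the alpha X chain (CD11c) found on many dendritic cells and on some macrophages, read 8.93 and 10.42 in WT against 8.53 and 8.96 in Hem1 KO macrophages. WT replicate 2 stood well above the other 3 arrays, and WT replicate 1 lay just under Hem1 KO replicate 2, so the genotypes overlapped. The difference of -0.93 (SE 0.43, 95% interval -1.86 to 0.00, adjusted p = 0.965 by limma) was -0.19 without WT replicate 2. It was -1.67 without WT replicate 1, where limma called it (adjusted p = 0.0465), and the intensity-dependent prior called it as well (adjusted p = 0.0216). Of 8 dendritic cell markers, 5 lay at or below background on all arrays, Flt3, Xcr1 and Clec9a among them. The others, Ccr7 (7.98 to 8.68), Cd209a and Zbtb46, lay above it on all 4 arrays. In limma's fit 0 of the 8 were called and 0 had an unadjusted p under 0.05, and their median difference was -0.02. The log2 of the summed values of the 8, of which Ccr7 was the brightest, was 9.47 and 9.03 in WT against 9.52 and 8.90 in Hem1 KO macrophages. The part of these markers in the Itgax values was not tested.

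Itgal, which encodes the alpha L chain of the ICAM receptor LFA-1, read 9.92 and 8.30 in WT against 9.53 and 9.35 in Hem1 KO macrophages. The WT arrays enclosed both Hem1 KO arrays, and they differed from each other by more than the genotypes did. The difference was 0.33 (SE 0.44, 95% interval -0.63 to 1.28, adjusted p = 1 by limma), and it turned to -0.48 without WT replicate 2 and rose to 1.14 without WT replicate 1. Among all 10 members the WT pairs of Itgal (SD 1.14) and Itgax (SD 1.05) were the widest, and they ran in opposite directions on the same arrays.

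The upstream sequences of Itgam and Itgax are shown because the genes lie next to each other among the protein-coding genes of mouse chromosome 7 in RefSeq and had the lower differences among the alpha partners of beta 2. RefSeq promoters (GRCm38.p6) were matched for 7 of the 10 members. Itgal, Itgb2 and Itgb3 are named only. Capitals mark GAGGAA or its reverse complement TTCCTC, the purine-rich core bound by PU.1 and other Ets factors; PU.1, encoded by Spi1, is the transcription factor on which macrophage identity rests. Both lie on the plus strand and end at the base before the annotated gene.

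Itgam, chr7:128062390-128062639: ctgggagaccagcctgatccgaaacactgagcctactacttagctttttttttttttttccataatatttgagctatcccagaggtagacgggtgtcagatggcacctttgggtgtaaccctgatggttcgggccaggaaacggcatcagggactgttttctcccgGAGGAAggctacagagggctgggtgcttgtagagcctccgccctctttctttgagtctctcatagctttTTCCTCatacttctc
Itgax, chr7:128129300-128129525: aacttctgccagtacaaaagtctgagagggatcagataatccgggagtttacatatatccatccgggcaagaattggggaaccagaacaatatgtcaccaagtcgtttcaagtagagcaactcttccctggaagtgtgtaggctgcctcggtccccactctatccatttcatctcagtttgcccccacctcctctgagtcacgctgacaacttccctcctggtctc

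The Itgam stretch of 250 bases holds the motif once in each orientation, and the Itgax stretch of 226 bases holds none. Over the 250 bases upstream of the start in each of the 32851 promoters, 23.3% hold it in either orientation. Of the 7 matched members, 4 hold it in at least 1 promoter over the full 250 bases. That is a count by gene and not by promoter, so it does not compare directly with the 23.3% or with the stretches shown. A match is a string of letters and not a shown binding site. Spi1 itself read 11.98 and 11.85 in WT against 11.77 and 11.64 in Hem1 KO macrophages (difference -0.21, SE 0.31, adjusted p = 1 by limma).

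In the beta 1 group no gene was called. Itgb1, whose product pairs with the largest number of alpha chains, read 11.39 and 11.42 in WT against 11.53 and 11.47 in Hem1 KO macrophages. The 4 values lay within a narrow range and both Hem1 KO arrays were higher, by 0.10 on average (SE 0.31, 95% interval -0.57 to 0.76, adjusted p = 1 by limma), although centring the arrays on their medians gave -0.0035 and so turned the sign.

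Itga5, which encodes the alpha 5 chain of the fibronectin receptor, read 9.61 and 9.85 in WT against 9.78 and 9.85 in Hem1 KO macrophages. The genotypes overlapped (difference 0.08, SE 0.31, 95% interval -0.59 to 0.75), and the sign turned after median centring (-0.02) and without WT replicate 1 (-0.04). Itga4, which encodes the alpha 4 chain that binds VCAM-1, read 10.16 and 9.52 in WT against 9.25 and 9.38 in Hem1 KO macrophages. Both Hem1 KO arrays were lower, WT replicate 2 lay close to them, and the difference was -0.52 (SE 0.33, 95% interval -1.24 to 0.20, adjusted p = 1 by limma). Each WT array decided its size: it was -0.20 when WT replicate 1 was left out and -0.84 when WT replicate 2 was.

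No gene of the alpha V group was called either. Itgav, which encodes the alpha V chain, read 9.30 and 8.89 in WT against 9.62 and 8.98 in Hem1 KO macrophages. Replicate 1 was the higher array in both genotypes, the genotypes overlapped, and the difference was 0.21 (SE 0.34, 95% interval -0.53 to 0.95, adjusted p = 1 by limma) and -0.11 without Hem1 KO replicate 1.

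Itgb3, the beta 3 chain that osteoclasts use to seal onto bone, read 7.36 and 7.72 in WT against 7.66 and 7.36 in Hem1 KO macrophages, so that the genotypes covered the same range (difference -0.03, SE 0.32, 95% interval -0.72 to 0.67). Its sign turned when WT replicate 2 (0.15) or Hem1 KO replicate 2 (0.12) was left out. Itgb5, the beta 5 chain of a receptor for apoptotic cells and vitronectin, read 11.13 and 11.08 in WT against 10.96 and 11.08 in Hem1 KO macrophages. Hem1 KO replicate 2 lay just under WT replicate 2, and the difference was -0.09 (SE 0.31, 95% interval -0.75 to 0.58, adjusted p = 1 by limma), which turned to 0.06 after quantile normalization. Of 8 osteoclast markers, limma called 0 higher and 2 lower, against 1.48% and 0.133% of all genes. Their median was -0.10, with 3 genes above 0. Those called were the fusion protein gene Dcstamp (at least 23.8-fold) and the proton pump gene Atp6v0d2 (5.38-fold). The call of Atp6v0d2 ended after quantile normalization (adjusted p = 0.106 by limma). The part of these markers in the Itgb3 values was not tested.

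**Figure D2:**
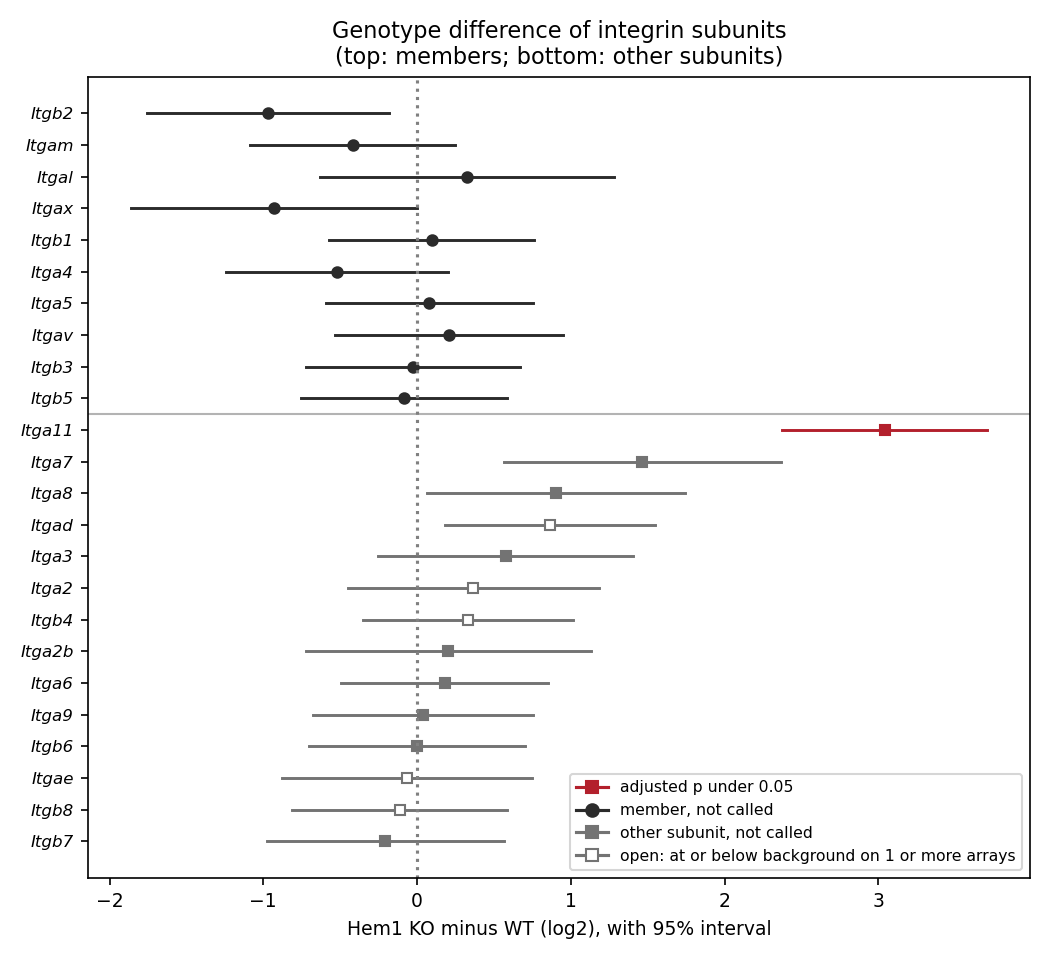
Difference between genotypes (Hem1 KO minus WT, log2) with its 95% interval for the 10 members (above the line) and the 14 other measured integrin subunits (below it), in red where the adjusted p was under 0.05 and open where a gene was at or below background on at least 1 array. The interval of Itgb2 (-1.76 to -0.18) is the only one among the members that does not reach 0, and Itga11 (3.04) is the only subunit in red.

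Set side by side, the beta 2 group (Itgb2, Itgam, Itgal, Itgax) averaged 10.31 and 10.43 in WT against 9.76 and 10.00 in Hem1 KO macrophages, a difference of -0.50. The arrays of the genotypes did not overlap, and 3 of the 4 genes lay under 0. The beta 1 group (Itgb1, Itga4, Itga5) averaged 10.39 and 10.26 in WT against 10.19 and 10.23 in Hem1 KO macrophages, a difference of -0.11, with Itga4 its only gene under 0. Its arrays did not overlap either, so the separation is not particular to the beta 2 group. Of all single genes, 13.3% were lower without overlap. The alpha V group (Itgav, Itgb3, Itgb5) averaged 9.26 and 9.23 in WT against 9.41 and 9.14 in Hem1 KO macrophages, a difference of 0.03 with overlapping arrays that read -0.07 after median centring and -0.10 without Hem1 KO replicate 1. These averages describe the members and carry no test.

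Whether beta 2 changed unequally to the other beta chains was asked within arrays, since a shift of a whole array cancels there. The Itgb2 value minus the Itgb1 value was -0.84 and -0.18 in WT against -1.97 and -1.19 in Hem1 KO macrophages, so that the change of Itgb2 relative to that of Itgb1 was -1.07 on the log2 scale. Against Itgb3 the change of Itgb2 was -0.94, and against Itgb5 it was -0.88. The genotypes did not overlap in any of these 3 comparisons. An exact two-sided permutation test gave p = 0.333 for each, which is the smallest p that 2 arrays against 2 allow, and p = 0.333 after adjustment over the 3. When any 1 array was left out, the change of Itgb2 against Itgb1 ran from -1.46 to -0.67.

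**Figure D3:**
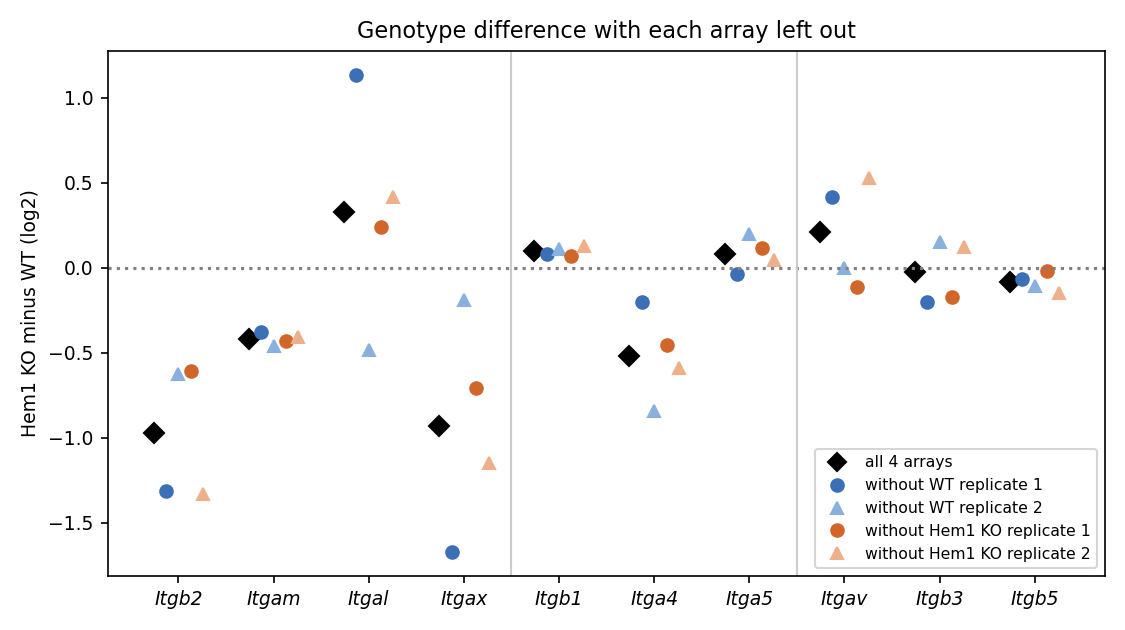
Difference between genotypes (Hem1 KO minus WT, log2) of each integrin gene from all 4 arrays (black diamonds) and with each array left out in turn. Itgam and Itgb1 barely move, Itgb2 stays below 0 between -1.33 and -0.61, and Itgax and Itgal spread over -1.67 to -0.19 and -0.48 to 1.14.

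The 5 genes whose 4 values were most like those of Itgb2, out of 11778 other genes above background on all arrays, were Cd180, Lair1, Mfsd12, Rgs18 and Galc. Likeness was the root mean square difference of the values after each gene was centred on its own mean, which was 0.08 for Cd180, a Toll-like receptor homologue, 0.08 for the inhibitory collagen receptor gene Lair1, 0.11 for Mfsd12, and 0.14 for Rgs18, a regulator of G protein signalling, and for the lysosomal galactosylceramidase gene Galc. Cd180 read 10.01 and 10.49 in WT against 8.88 and 9.63 in Hem1 KO macrophages. Like Itgb2, each of the 5 was higher on replicate 2 than on replicate 1 in both genotypes and lower on both Hem1 KO arrays. That shared pattern follows from how the genes were picked and is no separate result. None passed in the fit used here (adjusted p = 0.453 to 0.810 by limma). Without Hem1 KO replicate 2 limma called Cd180 (-1.37) and Lair1 (-1.32), and the intensity-dependent prior brought calls of Cd180 (adjusted p = 0.0019), Lair1 (0.0375) and Mfsd12 (8.01e-05). Calls in the same fits as Itgb2 follow largely from the pick as well. With 4 arrays, such likeness is weak, and it says nothing of shared function.

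Outside the members, 14 of 16 other integrin subunits were measured and limma called 1, Itga11, which was higher, against 1.48% of all genes called higher. Itga11 encodes the alpha 11 chain, a collagen receptor known from fibroblasts and other mesenchymal cells. It read 6.33 and 6.28 in WT, just above background, and 9.35 and 9.34 in Hem1 KO macrophages, 8.23-fold higher (difference 3.04, SE 0.31, adjusted p = 0.000534 by limma). Its partner is the beta 1 chain, whose gene Itgb1 read 0.10 higher.

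Itga7, the alpha chain of a laminin receptor of muscle, read 6.63 and 5.73 in WT against 8.20 and 7.08 in Hem1 KO macrophages (1.46, SE 0.42, adjusted p = 0.165 by limma), and Itga8, the receptor chain for nephronectin, read 7.24 and 6.32 against 7.29 and 8.09 (0.91, SE 0.39, adjusted p = 0.797). Both were named after their values were seen. Limma called Itga7 without WT replicate 1 (1.92), without Hem1 KO replicate 2 (2.02), after median centring (1.36) and with the intensity-dependent prior (adjusted p = 0.0219), and the number of other subunits called was 2 in each of those leave-one-out fits. The bright subunits Itga6, of laminin receptors, and Itga9, which pairs with beta 1, read 0.18 (SE 0.31) and 0.04 (SE 0.33), the second turning to -0.06 after median centring. Itgad, another alpha partner of beta 2, read 4.33 and 4.59 in WT against 5.19 and 5.46 in Hem1 KO macrophages. Its arrays did not overlap (0.86, SE 0.32, adjusted p = 0.508 by limma), but it lay above background on only 1 array. It too was named after its values were seen. The median over the 14 was 0.27, and 11 lay above 0, against 10113 of 19505 over all genes.

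The stromal cell markers were higher beside Itga11. Of 9 measured, limma called 6 higher, among them Pdgfrb (5.14-fold), against 1.48% of all genes called higher. The median of the 9 was 1.94. The log2 of their summed values, of which Acta2 was the brightest, ran from 11.10 to 11.56 in WT against from 13.02 to 13.41 in Hem1 KO macrophages. Lum and Thy1 lay below background on all arrays. The count fell to 3 without WT replicate 2. Their part in the value of Itga11 was not tested.

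Ligands of the integrins were among the genes that rose. Of 18 measured RGD and matrix ligands of 20 listed, limma called 7 higher and 0 lower, against 1.48% of all genes called higher, with a median of 0.94 against 0.01 over all genes. Nephronectin, Npnt, read 6.58 and 6.36 in WT against 9.72 and 9.32 in Hem1 KO macrophages (8.28-fold, difference 3.05, SE 0.32, adjusted p = 0.000695 by limma). Ibsp, which encodes the RGD protein bone sialoprotein, was at least 8.62-fold higher. The matricellular gene Ccn1, whose product binds alpha V integrins and Mac-1, read 8.35 and 8.19 in WT against 10.58 and 10.55 in Hem1 KO macrophages (4.91-fold, SE 0.31, adjusted p = 0.00211).

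Tgfb3, a growth factor whose latent form carries RGD and is opened by alpha V integrins, read 8.89 and 8.74 in WT against 11.21 and 11.03 in Hem1 KO macrophages (4.96-fold, SE 0.31, adjusted p = 0.00211 by limma). Tnc, which encodes tenascin C, a ligand of alpha 9 and alpha V integrins, was 3.49-fold higher and Col1a1, a chain of the collagen that alpha 11 binds, 3.92-fold. The remaining called ligand gene was Ltbp1 (4.28-fold), named after its values were seen, whose product tethers latent TGF-beta and which lay above background on 1 of 2 WT arrays; its call ended without WT replicate 2 (1.64). Between 6 and 9 ligand genes were called when any 1 array was left out. The list shares Col1a1 with the stromal cell markers, whose median was 1.94, and their part in these values was not tested.

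Of the whole list of RGD and matrix ligands, 13 genes lay above 0 and 5 below, against 10113 and 9392 over all genes. Fn1 and Mfge8, further ligand genes of the members, went in opposite directions. Fn1, which encodes fibronectin, read 11.51 and 11.30 in WT against 12.51 and 12.20 in Hem1 KO macrophages, without overlap (0.95, SE 0.32, adjusted p = 0.352 by limma), and was called after quantile normalization (1.08, adjusted p = 0.0398) and with the intensity-dependent prior (adjusted p = 3.47e-08). Mfge8, the bridge from apoptotic cells to alpha V integrins, read 10.32 and 11.38 in WT against 10.26 and 9.83 in Hem1 KO macrophages (-0.80, SE 0.38, adjusted p = 0.996), with a difference of -1.33 when WT replicate 1 was left out and -0.28 when WT replicate 2 was; the intensity-dependent prior brought a call (adjusted p = 0.00463). Both were named after their values were seen. In limma's fit 0 of 11 measured beta 2 integrin ligands were called and 0 had an unadjusted p under 0.05, and their median was 0.21. Among those above background, Jam3 read 0.30 (SE 0.32), Icam4 0.29 (SE 0.35) and Icam2 0.12 (SE 0.32), and Icam1, the main ligand of LFA-1 and bright on all arrays, read -0.13 (SE 0.36) and 0.19 without WT replicate 1.

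**Figure D4:**
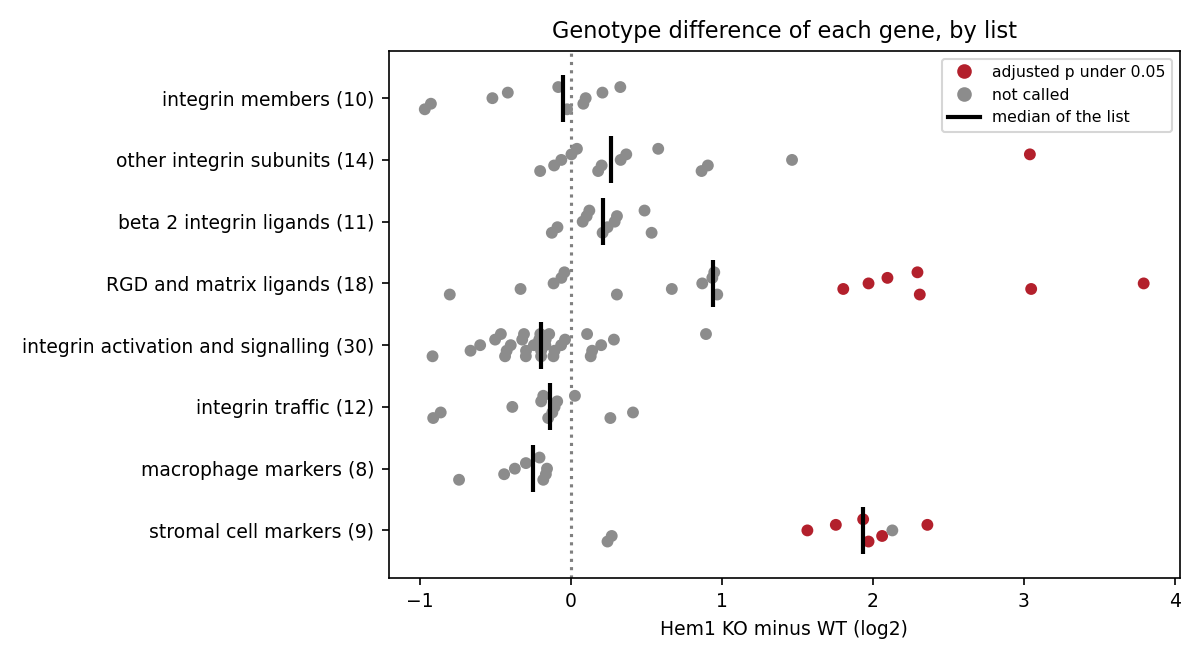
Difference between genotypes (Hem1 KO minus WT, log2) of each gene, by list, with the number of measured genes in brackets, red points for an adjusted p under 0.05 and black bars for the median of the list. The red points lie among the RGD and matrix ligands (7), the stromal cell markers (6) and the other integrin subunits (1), while the members have none.

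In limma's fit without a block 0 of 30 measured genes that switch integrins on or signal below them were called. An unadjusted p under 0.05 was reached by 1 on the higher and 1 on the lower side. The median was -0.20 with 24 genes under 0, where 9392 of 19505 lay under 0 over all genes. The kinase gene Fgr, which acts below beta 2 integrins in myeloid cells, read 7.75 and 7.18 in WT against 6.86 and 6.23 in Hem1 KO macrophages (-0.92, SE 0.35, adjusted p = 0.573 by limma), and limma called it after median centring (-1.02, adjusted p = 0.0458). Ptk2b, which encodes the adhesion kinase PYK2, read 9.67 and 9.06 against 8.57 and 8.82 (-0.67, SE 0.33, adjusted p = 1). Vcl, which encodes vinculin, the link from talin to actin, read 8.56 and 8.36 against 9.50 and 9.21 (0.89, SE 0.32, adjusted p = 0.442). The activators Tln1 (talin) and Fermt3 (kindlin-3) read -0.31 (SE 0.31) and -0.20 (SE 0.34).

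Of 12 measured genes of integrin traffic, which carry internalised receptors back to the surface, 0 were called in limma's fit and 2, both lower, had an unadjusted p under 0.05; the median was -0.14. These 2 were Acap1, a coat adaptor in beta 1 recycling (-0.91, SE 0.37, adjusted p = 0.682 by limma), and Rab4a, a small GTPase of fast recycling (-0.86, SE 0.36, adjusted p = 0.737), while the actin regulator Eps8 read 0.41 (SE 0.31). Acap1 read -1.41 when WT replicate 2 was left out but -0.42 when WT replicate 1 was. Rab4a read -1.33 when Hem1 KO replicate 1 was left out but -0.39 when Hem1 KO replicate 2 was. The macrophage markers had a median of -0.25, close to that of the activation genes. All 8 lay under 0, against 9392 of 19505 over all genes, and 5 were lower without overlap, against 13.3% of all genes. Adgre1 read -0.44, where Itgam read -0.42. Limma called 0 of the 8, and only Fcgr1, a high-affinity antibody receptor, reached an unadjusted p under 0.05. Its difference was -0.74 (SE 0.34, adjusted p = 0.912 by limma, and 0.000749 with the intensity-dependent prior). The part of a shift of these markers in the member values was not tested.

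Among markers of other cells that carry these integrins, limma called 0 of 7 neutrophil markers and 0 of 8 T, B and NK cell markers. It also called 0 of 5 megakaryocyte and platelet markers, and each list had 0 at an unadjusted p under 0.05. Of the neutrophil markers, 4 lay below background on all arrays, S100a8 among them, while Elane lay above it on all 4. Cd3e lay below background throughout, while Cd4 and Cd79a lay above it on all 4 arrays. So did the platelet markers Pf4, Gp9 and Itga2b, while Gp6 lay below it on all arrays. Pf4 was bright, with a mean of 12.52 in WT and 12.54 in Hem1 KO macrophages. The part of these markers in the member values was not tested. Of 6 endothelial markers, limma called Cdh5 higher (at least 1.86-fold) and Vwf lower (2.87-fold), against 1.48% and 0.133% of all genes. The call of Cdh5 ended after quantile normalization (adjusted p = 0.054 by limma). Vwf lay above background on 1 of 2 Hem1 KO arrays, and its call ended when either WT array was left out, at -1.52. Of 7 mast cell and basophil markers, limma called only Mcpt8, which was higher (18.9-fold), against 1.48% of all genes called higher. Its WT values were 5.89 and 5.22, above background on 1 of 2 WT arrays. The other 6 were not called, 3 of them at or below background on all arrays, and the median of the list was 0.10.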

How the data were processed

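RNA of 4 cultures was biotin-labelled with Affymetrix's Pico kit, per the labels' protocols. The authors deposited log2 values made with RMA, per the submitters' processing notes, which give no version. The array medians differ (6.53, 6.08, 6.63 and 6.11), so no quantile step across arrays is visible, and the values were used as they stand. The authors' table has 29129 rows. Of these, 19572 name 1 gene in the platform annotation and 9557 none. The brightest probe set of each gene was kept (55 genes had several), which left 19505. Some listed genes are not analysed here.

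The fit used limma 3.58.1 (R 4.3.3) on all genes, by lmFit and then eBayes (genotype the only term, prior degrees of freedom 11.2, Benjamini-Hochberg over all genes). The fit was tested on simulated data whose variances came from its own prior, with no replicate effect. Such a test cannot show whether these arrays meet the assumptions of the fit. A fold is written "at least" where a gene was at or below background on both arrays of 1 genotype. That background level was chosen with the data known. The members, lists and rules were chosen with earlier results of these data known. Named are the members, Nckap1l, the 5 genes most like Itgb2 and, per list, up to 6 called genes or otherwise (marker lists apart) the 3 above background with the smallest p. Genes named otherwise were chosen after their values were seen. Alternatives left out each array, blocked on the replicate number, normalized by median centring or quantiles, and changed the filter, prior, probe set rule, features tested, threshold or group summary.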

Additional observations from a re-analysis of the deposited data

How the results depend on the processing

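With all 4 arrays limma called 314 genes (91.7% higher) and 0 integrin members. The count of genes ran from 239 to 598 and that of members from 0 to 1 when any 1 array was left out, in fits that assume a lone array to vary like the other genotype, and the higher share ran from 72.8% to 92.7%. With the replicate number as a block, 819 genes (75.7% higher) and 1 member, Itgb2 (-0.97, adjusted p = 0.0137), were called. That fit also called Cd180 (adjusted p = 0.0127), Lair1 (0.0307), Mfsd12 (0.0161), Galc (0.0375), Itga7 (0.000406), Fn1 (0.0164), Vcl (0.0252) and Fgr (0.0208), which were not called without the block. The same number alone does not show that arrays belong together. Over all genes, the replicate 1 deviations from the genotype mean correlated at 0.241 between WT and Hem1 KO. With 2 arrays per genotype the replicate 2 deviations only mirror these, so this is 1 correlation. The array medians went with the number, at 6.53 (WT) and 6.63 (Hem1 KO) for replicate 1 against 6.08 and 6.11 for replicate 2. Whether the arrays were paired was not tested. An intensity trend in the prior gave 614 genes (66.6% higher) and 2 members, Itgb2 and Itgax, and keeping only genes above background on at least 2 arrays gave 182 genes. Median centring moved the median of all genes from 0.01 to -0.09.

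The beta 1 group read -0.21 after median centring, 0.0014 after quantile normalization and -0.19 when each array was summarised by the median of the group's values in place of their mean. With that summary the beta 2 group read -0.85 and the alpha V group 0.21. The medians of the gene differences were 0.08, -0.67 and -0.03 for the beta 1, beta 2 and alpha V groups, which turns the sign for beta 1 and alpha V. Of the 120 values of members under alternatives, 9 turned the sign, all of them uncalled, and 5 passed the threshold. When any 1 array was left out, Itgal ran from -0.48 to 1.14, Itgav from -0.11 to 0.53, Itgb3 from -0.20 to 0.15 and Itga5 from -0.038 to 0.20. Median centring turned Itgb1 (-0.0035), Itga5 (-0.019) and Itga9 (-0.062), and quantile normalization turned Itgb5 (0.056). Of the other named genes, all uncalled, Icam1 ran from -0.46 to 0.20, Icam2 from -0.075 to 0.32, Icam4 from -0.11 to 0.68, Itga9 from -0.25 to 0.32 and Fermt3 from -0.45 to 0.046 when any 1 array was left out. The causes were not tested.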
